A study of Drosophila melanogaster with 32 samples.

Results

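Line R4 is one of 3 Drosophila melanogaster cell lines, named R1, R4 and R5, whose total RNA was sequenced at successive passages. Each passage marks a split of the culture. The comparison described here sets the 3 late libraries of R4 (passages 16, 17 and 19) against its 5 intermediate libraries (passages 5, 6, 7, 9 and 11). These 8 libraries of the 32 in the series were chosen by line and passage number alone. Passage 12 was kept out of the test and is given as the point in between. All libraries came from cells kept in flasks in Schneider's medium with 10% fetal bovine serum and antibiotics, and the labels name no treatment. They give 1 run of passages for R4 and no separate cultures. The successive passages therefore stand in for replicates, and p-values measure the spread between them, not between cultures. The sources used here do not state the origin, genotype or cell type of any line, so there was no labelled tissue to check against markers. The early passages of R4 (2, 3 and 4), and the late and intermediate libraries of R1 (3 and 5) and R5 (3 and 3), serve below as points of reference.

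A culture set up from fly tissue starts as a mixture of cells, and repeated splitting enriches the cells that keep dividing. Established fly lines differ from each other in the transcription factors they express, and those factors mark the developmental field the cells resemble. Fly cells of blood, fat body and mesodermal origin also secrete basement membrane, a sheet of type IV collagen, laminin, nidogen and perlecan that holds growth factors and anchors integrins. In bulk RNA such as this, fewer cells of a type and less RNA per cell cannot be told apart.

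Total counts ran from 9236082 to 13953693 in the late libraries of R4 and from 10888029 to 13613326 in the intermediate ones, and passage 12 held 10410508. No pair of libraries held identical counts. Levels are given as CPM, counts relative to library size after TMM scaling for library composition. On the first principal component of the 9 libraries from passage 5 to 19 (47.2% of the variance) the late libraries lay at 29.8, 46.9 and 41.7, passage 12 at -0.78, and the intermediate ones between -31.1 and -7.59, with passage 11 nearest to passage 12. The library of passage 17 stood apart in a few RNA entries. The rRNA entry CR41583 had 3793 CPM there, against 80.2 and 62.3 at passages 16 and 19 and 32.8 to 65.4 CPM in the intermediate libraries. The rRNA entry CR41608 (218 CPM at passage 17, 6.13 and 4.89 at passages 16 and 19) and the pseudogene CR43361 (82.9, 1.44 and 2.65 CPM) did the same. Without passage 17 their calls were lost (log2 change 0.45, 0.81 and 1.36, adjusted p = 0.613, 0.163 and 0.102). All 3 are among the rises counted below, and reads of such multicopy entries are uncertain.

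Of 9177 genes tested, 673 were higher in late than in intermediate R4 (7.33%) and 470 were lower (5.12%), 1143 in all or 12.5% (edgeR quasi-likelihood test, adjusted p under 0.05). The rises were the larger changes. The median log2 change was 1.28 among the rises and -0.60 among the falls, against -0.0066 over all genes tested. At least 4-fold changes (2 on the log2 scale) numbered 188 higher and 82 lower. The 3 late and 5 intermediate libraries did not overlap in 619 of the rises and 422 of the falls, while 12.8% and 11.6% of all genes tested showed such a gap upward and downward. Leaving out a late library lowered the count of calls to 746 (passage 16), 671 (passage 17) or 587 (passage 19).

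Passage 12 lay closer to the intermediate than to the late level for most called genes. On the log2 CPM scale, where 0 is the mean of the intermediate and 1 the mean of the late libraries, it stood at a median of 0.322 for rises and 0.373 for falls. Of the rises 473 were under 0.5 at passage 12 and 200 were at or above it, and of the falls 287 and 183. Passage 11 already leaned the same way, with medians of 0.145 and 0.22. Since the scale rests on the libraries that made the calls, these positions are a description only.

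**Figure D1:**
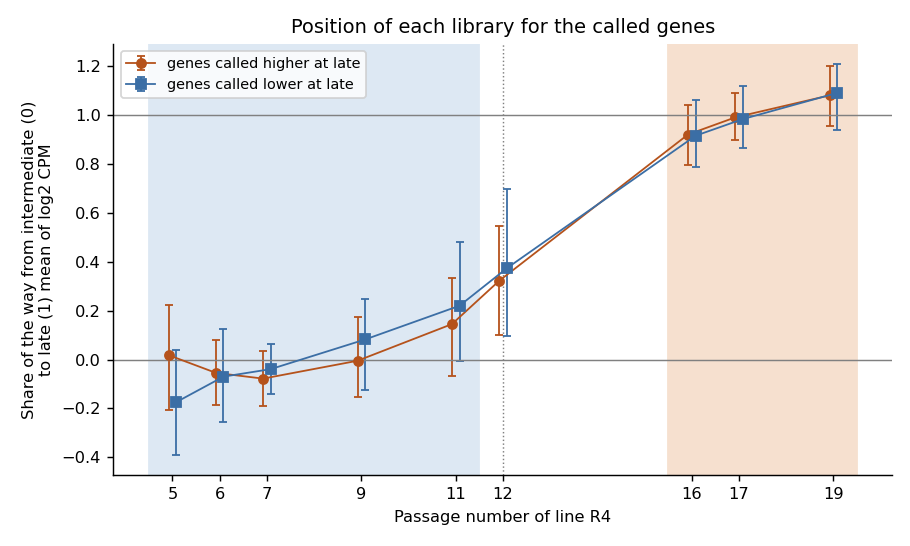
Median position of each R4 library from passage 5 to 19 for the 673 genes called higher (circles) and the 470 called lower (squares) at late, on a scale from the intermediate mean (0) to the late mean (1) of log2 CPM. Bars span the lower to upper quartile, shading marks the late and the intermediate stage, and the dotted line marks passage 12, whose medians are 0.322 and 0.373.

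Among the largest rises were transcription factors of the retinal determination network, the set of genes that specifies the eye field in the fly head. toy (twin of eyeless, chromosome 4), a Pax6 protein at the top of this network, had 87.1, 102 and 152 CPM at passages 16, 17 and 19, against 6.09, 5.49, 4.98, 4.9 and 14.7 CPM at passages 5, 6, 7, 9 and 11. Every late library stood above every intermediate one, and passage 12 (31.1 CPM) stood between them (log2 change 3.99 ± 0.44 SE, adjusted p = 1.27e-06). ey (eyeless, chromosome 4), the second Pax6 gene and a direct target of toy in the embryo, had 26.1, 29.9 and 48.4 CPM at late, against 3.12, 1.86, 1.8, 1.66 and 3.08 CPM at intermediate (log2 3.91 ± 0.45, adjusted p = 2.26e-06). Both genes were highest at passage 19. toy and ey are paralogs with 14 other genes starting between them in the BDGP6.54 annotation, and whether they share reads was not tested.

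The next tier of the network moved too. eya (eyes absent, 2L), a transcriptional coactivator and phosphatase, had 27.9, 23.1 and 27.9 CPM at late, against 1.52, 1.13, 1.63, 1.66 and 1.59 CPM at intermediate (log2 4.12 ± 0.48, adjusted p = 2.41e-06). Its DNA-binding partner so (sine oculis, 2R) had 26.3, 22.9 and 22.6 CPM at late, against 2.76, 2.26, 2.94, 1.44 and 2.71 CPM at intermediate (log2 3.31 ± 0.43, adjusted p = 1.03e-05). In both genes every late library stood above every intermediate one. Neither gene is particular to the eye field, as both are also on the adult muscle precursor and somatic gonad lists used here. At passages 2 and 3 eya had 30.4 and 13.5 CPM and so had 20.04 and 15.8 CPM, so both genes had been higher at first. By passage 4 eya had 4.37 CPM and so had 3.14 CPM. The values of toy (2.09 and 3.25 CPM) and ey (1.35 and 5.15 CPM) at passages 2 and 3 were far below the late ones. dac (dachshund, 2L), a further member, averaged 29.04 ± 8.21 CPM at late and 6.24 ± 3.06 CPM at intermediate (SD, n = 3 and 5; log2 2.22 ± 0.47, adjusted p = 0.00235). Optix (2R), a relative of so that acts at the furrow front of the eye disc, averaged 8.66 ± 2.25 and 2.36 ± 1.35 CPM in the same order (log2 1.88 ± 0.36, adjusted p = 0.00102). The set of 10 network genes was written down after these values were seen. The other 4 did not pass: toe (log2 1.45, adjusted p = 0.162), dan (0.51, 0.735), danr (0.47, 0.761) and eyg (adjusted p = 0.0624). Of eyg 2 reads were found in the late and 38 in the intermediate libraries, and the highest of any of these 4 genes in the 8 libraries was 1.13 CPM. eyg, lower at late, did pass with passage 12 counted as late (adjusted p = 0.0307), with passage number as a linear term (0.00853) and without passage 11 (0.0344).

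The homeobox gene Vsx1 and the receptor gene sev, also known from the visual system, fell. Vsx1 (X), a factor of the optic lobe, had 0.65, 0.215 and 0.204 CPM at late, against 10.96, 10.2, 9.56, 13.97 and 7.84 CPM at intermediate (log2 -4.74 ± 0.77, adjusted p = 0.00022). Without passage 16 its late mean was 0.21 CPM (log2 -5.58). sev (sevenless, X), the receptor tyrosine kinase of the R7 photoreceptor, had 5.41, 5.07 and 4.18 CPM at late, against 40.05, 35.1, 32.8, 47.8 and 26.9 CPM at intermediate (log2 -2.9 ± 0.50, adjusted p = 0.000353). Both groups were separate in both genes, with passage 12 in between at 3.41 and 13.2 CPM.

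**Figure D2:**
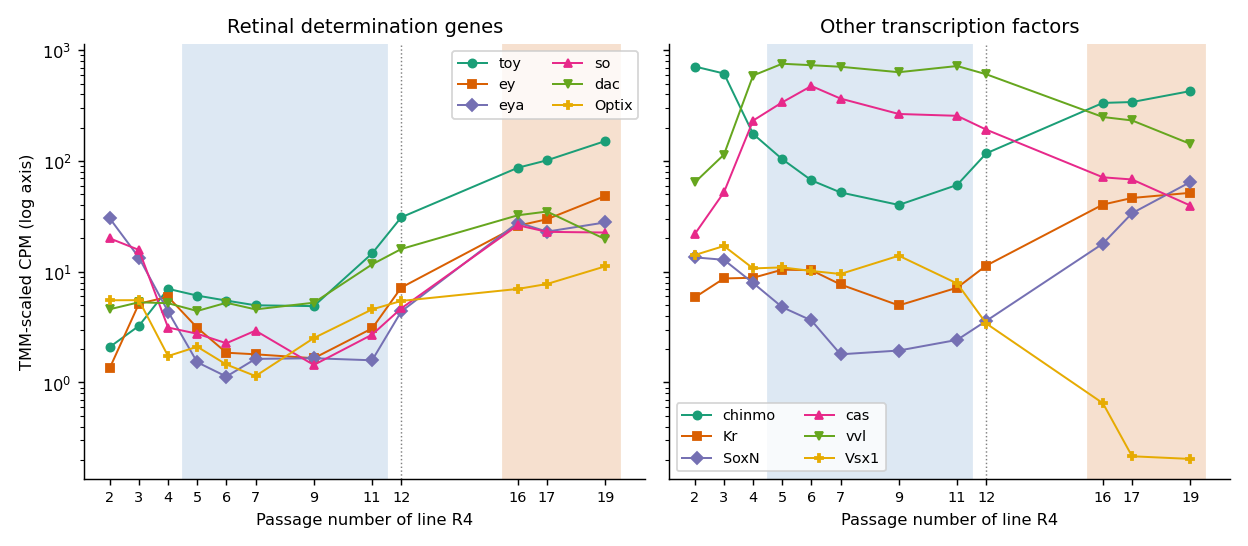
TMM-scaled CPM (log axis) of 12 transcription factor or cofactor genes at the 12 sampled passages of R4, with the retinal determination genes at left and other factors at right. Each point is 1 library, shading marks the intermediate (passages 5 to 11) and late (16 to 19) stages and the dotted line passage 12. toy reaches 152 CPM and SoxN 64.7 CPM at passage 19, while cas, vvl and Vsx1 are lower in each late library than in any intermediate one.

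Factors known as markers of developmental time moved in opposite directions. chinmo (2L), a zinc finger factor of early-born neurons and of progenitor states, had 336, 342 and 429 CPM at late, against 104, 67.05, 52.1, 40.2 and 60.9 CPM at intermediate (log2 2.51 ± 0.52, adjusted p = 0.00215). Passages 2, 3 and 4 held 715, 618 and 176 CPM. The late level thus lay below passages 2 and 3 and above passage 4 and the intermediate ones. mamo (X), a zinc finger factor that acts with chinmo in neuron fate, averaged 306 ± 40.01 CPM at late and 122 ± 24.4 CPM at intermediate (log2 1.32 ± 0.20, adjusted p = 7.89e-05). Kr (Krüppel, 2R), a gap gene and early temporal factor of neuroblasts, averaged 46.2 ± 5.6 and 8.12 ± 2.31 CPM (log2 2.5 ± 0.40, adjusted p = 0.000118). cas (castor, 3R), which follows Kr in the neuroblast series, did the opposite, with 71.4, 68.2 and 39.7 CPM at late, against 339.7, 477, 367, 266 and 256 CPM at intermediate (log2 -2.51 ± 0.57, adjusted p = 0.0048). At passages 2, 3 and 4 it had 21.9, 52.3 and 232 CPM. Of 14 tested members of the list of temporal factors 3 rose (mamo, Kr and chinmo) and 2 fell (cas and ab), with a median log2 change of 0.377. The share called was 35.7%, beside 12.5% of all genes tested. When passage 16, 17 or 19 was left out, 3 rises and 1 fall were called each time.

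Some other transcription factors were, like cas, lower at passages 2 and 3 and at late than at intermediate. ap (apterous, 2R), the LIM-homeodomain selector of the dorsal wing, averaged 153 ± 34.7 CPM at late and 432 ± 15.8 CPM at intermediate (log2 -1.5 ± 0.34, adjusted p = 0.00468), with 141 and 184 CPM at passages 2 and 3. zfh2 (chromosome 4), a zinc finger homeodomain factor, averaged 98.2 ± 9.03 and 409.7 ± 75.2 CPM (log2 -2.06 ± 0.55, adjusted p = 0.0138), with 33.5 and 49.5 CPM at those passages. vvl (ventral veins lacking, 3L), a POU factor of trachea and brain, averaged 209 ± 57.6 and 713 ± 46.4 CPM (log2 -1.77 ± 0.55, adjusted p = 0.0345), with 64.2 and 114 CPM there. Passage 4, also an early library, stood well above passages 2 and 3 and above every late library. It had 362 CPM for ap, 330 CPM for zfh2 and 593 CPM for vvl, with zfh2 inside its intermediate range. The late and intermediate libraries did not overlap in the 3 genes. The call of zfh2 was lost without passage 17 or 19 (adjusted p = 0.0596 and 0.0716), and that of vvl without any one of passages 5, 6, 7, 16, 17 or 19 (up to 0.167).

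The SoxB genes of neural progenitors rose. SoxN (SoxNeuro, 2L) had 17.97, 33.8 and 64.7 CPM at late, against 4.79, 3.63, 1.8, 1.94 and 2.43 CPM at intermediate (log2 3.72 ± 0.35, adjusted p = 1.48e-07), and its paralog D (Dichaete, 3L) had 2.24, 5.6 and 14.9 CPM, against 0.653, 0.566, 0.0817, 0.216 and 0.373 CPM (log2 4.27 ± 0.64, adjusted p = 6.05e-05). In both genes each late library exceeded every intermediate one, and passage 19 was the highest. Without it the late mean of D was 3.92 CPM (log2 3.34). Of 16 tested members of the neuroblast and proneural list 5 rose (SoxN, D, Kr, mira and brat) and cas fell, with a median of 0.946. The share called was 37.5%, beside 12.5% of all genes tested. Of mira, whose product segregates fate determinants in dividing neuroblasts, 11.9 ± 1.68 CPM were found at late and 3.69 ± 0.904 at intermediate (log2 1.69 ± 0.38, adjusted p = 0.00453).

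Part of the neuronal genes rose, while the marker of all neurons did not pass. Of 22 tested members 8 rose (Nrg, scrt, Appl, cac, onecut, fne, Rbp9 and DAT) and none fell, with a median of 0.837. The share called was 36.4%, beside 12.5% of all genes tested. With passage 16, 17 or 19 left out, 7, 7 and 6 rose. scrt (scratch, 3L), a zinc finger factor that promotes neuronal fate, had 15.8, 17.5 and 14.99 CPM at late, against 1.09, 1.05, 0.898, 1.51 and 3.64 CPM at intermediate (log2 3.31 ± 0.47, adjusted p = 3.17e-05). Nrg (neuroglian, X), a cell adhesion protein of neurons and septate junctions, had 363, 396 and 463 CPM, against 216, 183, 171, 179 and 198 CPM (log2 1.1 ± 0.14, adjusted p = 5.64e-06). Appl (X), the fly amyloid precursor-like protein, rose by 1.5 on the log2 scale and cac (X), a voltage-gated calcium channel, by 1.45 (adjusted p = 0.000127 and 0.000349). elav (X), the RNA-binding protein that marks neurons, averaged 179.7 ± 3.73 CPM at late and 182 ± 10.7 CPM at intermediate (log2 -0.022 ± 0.075, adjusted p = 0.889). When passage 4 was counted as intermediate, Appl and the homeobox gene onecut (chromosome 4) lost their calls (adjusted p = 0.0704 and 0.134). The log2 change of onecut was 1.35 ± 0.30 without that library. The summed CPM of the list ran from 1837 to 1888 at late and from 1534 to 1845 at intermediate.

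Glial genes split. Of 18 tested members 4 rose (Gli, nrv2, htl and vkg) and 2 fell (Eaat1 and Gs2), or 33.3% beside 12.5% of all genes tested. The median was 0.23, and summed levels were 3852 to 4355 CPM at late against 2217 to 3094 CPM at intermediate. Several genes of this list are shared with the septate junction and basement membrane lists. Gli (gliotactin, 2L), a protein of the corners where cells of a septate epithelium meet, had 79.2, 90.5 and 105 CPM at late, against 39.5, 36.2, 34.3, 38.7 and 23.98 CPM at intermediate (log2 1.4 ± 0.20, adjusted p = 2.80e-05). Eaat1 (2L), the glutamate transporter of glia, had 7.79, 7.54 and 6.01 CPM, against 87.5, 90.7, 41.4, 24.1 and 14.2 CPM (log2 -2.85 ± 0.55, adjusted p = 0.00104). Its intermediate values were lower from passage 7 on, and its late values lay below all of them. The glial master factor repo averaged 0.866 ± 0.397 CPM at late and 0.285 ± 0.294 CPM at intermediate (log2 1.6, adjusted p = 0.109). Without passage 11 it passed (adjusted p = 0.0262).

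The basement membrane list had the highest share of rises. Of 16 members, all tested, 11 rose and none fell (68.8%, beside 12.5% of all genes tested). The median log2 change was 0.778, and the summed level of the list was 12520 to 14990 CPM at late against 5718 to 9664 CPM at intermediate. Plod (3L), the lysyl hydroxylase that prepares collagen chains for assembly, had 920.5, 964 and 1131 CPM at late, against 301, 321, 371, 409.8 and 488 CPM at intermediate (log2 1.41 ± 0.16, adjusted p = 1.50e-06). PH4alphaEFB (3R), the prolyl hydroxylase of the same step, had 312, 302 and 352 CPM, against 214, 204, 186, 182 and 204 CPM (log2 0.70 ± 0.11, adjusted p = 0.000139). Late libraries were above all intermediate ones in both enzymes.

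The collagen chains themselves climbed within the intermediate stage before they reached the late level. Col4a1 (2L) had 1562, 1614 and 1637 CPM at late, against 363, 504, 699, 947 and 1067 CPM at intermediate, in rising order of passage (log2 1.16 ± 0.30, adjusted p = 0.0114). vkg (viking, 2L), the other chain of type IV collagen, is the next gene to start beside Col4a1, and had 1740.0, 1834 and 1975 CPM, against 414, 609, 862, 1115 and 1263 CPM (log2 1.12 ± 0.30, adjusted p = 0.0139). The late values of both lay within a narrow band above the highest intermediate value. At passages 2 and 3 Col4a1 had 1094 and 1104 CPM and vkg had 1181 and 1158 CPM. These were above every intermediate value of Col4a1 and all but the highest of vkg. At passage 4 Col4a1 had 365 CPM and vkg 426 CPM, near their passage 5 values.

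Laminin subunits and linkers rose by less. LanB1 (2L) and LanB2 (3L), the β and γ chains of laminin, changed by 0.60 ± 0.17 and 0.78 ± 0.19 on the log2 scale (adjusted p = 0.0184 and 0.00877). LanA (3L), an α chain, had 1993, 2238 and 2573 CPM at late, against 1082, 1336, 1683, 2164 and 1634 CPM at intermediate, and did not pass (log2 0.52 ± 0.19, adjusted p = 0.0808), though it passed without passage 9 (adjusted p = 0.0231). trol (X), the perlecan, averaged 1953 ± 301 CPM at late and 1056 ± 288 CPM at intermediate (log2 0.89 ± 0.24, adjusted p = 0.0158). SPARC (3R), a collagen chaperone, and Ndg (2R), the nidogen, passed narrowly (log2 0.77 and 0.76, adjusted p = 0.0433 and 0.0466). Both calls were fragile, being lost in 7 and 6 of the 8 fits without a library (up to 0.151 and 0.132).

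The largest changes of the list were in proteins around the sheet. Pxn (peroxidasin, 3L), the peroxidase that cross-links collagen, had 96.5, 79.6 and 98.7 CPM at late, against 6.6, 8.32, 9.39, 17.6 and 32.5 CPM at intermediate (log2 2.63 ± 0.50, adjusted p = 0.000886). Tig (tiggrin, 2L), an integrin ligand, had 297, 339 and 456 CPM, against 96.7, 70.2, 88.9, 123 and 109 CPM (log2 1.9 ± 0.31, adjusted p = 0.000194). The 4 members besides LanA that were not called were wb (log2 0.40 ± 0.20, adjusted p = 0.208), Ppn (0.15 ± 0.34, 0.83), Mp (-0.24 ± 0.38, 0.739) and Glt (0.98 ± 0.79, 0.466). Leaving out passage 16, 17 or 19 left 9, 9 and 5 rises and no fall. The 6 lost without passage 19 were LanB1, LanB2, vkg, trol, SPARC and Ndg (adjusted p = 0.0871, 0.0508, 0.0527, 0.0935, 0.151 and 0.118).

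**Figure D3:**
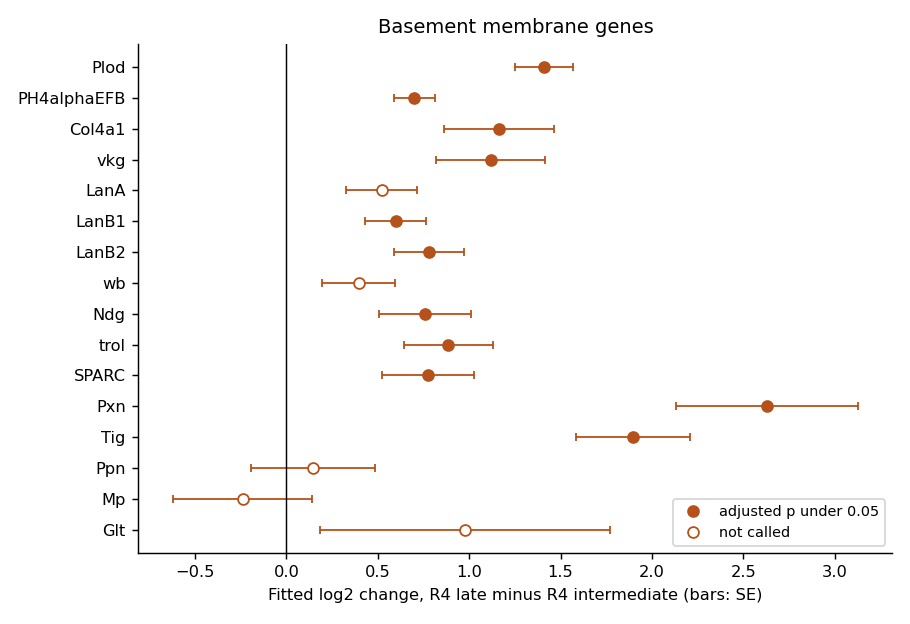
Fitted log2 change of the 16 basement membrane genes, R4 late minus R4 intermediate, with bars of 1 SE. Filled points passed at an adjusted p under 0.05 (11 genes, all above 0) and open points did not. Pxn is highest at 2.63 and Mp lowest at -0.24.

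Pxn and Col4a1 are also made by hemocytes, the fly blood cells. They were the 2 rises among 18 tested hemocyte genes, and none fell (median 0.375). The share called was 11.1%, near the 12.5% of all genes tested. Hml (3L), the hemolectin of plasmatocytes, averaged 70.5 ± 17.2 CPM at late and 74.5 ± 46.1 CPM at intermediate (log2 -0.08 ± 0.50, adjusted p = 0.944). srp (serpent, 3R), the GATA factor of blood and fat body, averaged 201 ± 27.2 and 129 ± 58.9 CPM (log2 0.64 ± 0.54, adjusted p = 0.483). The summed list stood at 3016 to 3178 CPM at late and 940.2 to 3889 CPM at intermediate, so the stages overlapped. The part of hemocyte-like cells in the collagen values was not tested.

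Notch pathway genes moved in both directions, more often up. Of 20 tested members 8 rose and 3 fell (55.0%, beside 12.5% of all genes tested), with a median of 0.437. Among the ligands, Delta (3R) averaged 76.7 ± 5.96 CPM at late and 32.3 ± 4.38 CPM at intermediate (log2 1.25 ± 0.22, adjusted p = 0.000434), and Ser (Serrate, 3R) 142 ± 5.39 and 79.8 ± 19.01 CPM (log2 0.83 ± 0.24, adjusted p = 0.0206). The receptor gene N (X) averaged 422 ± 15.4 and 467 ± 58.01 CPM and did not pass (log2 -0.14 ± 0.11, adjusted p = 0.453). kuz (2L), the protease that cleaves the receptor, rose by 0.50 on the log2 scale (adjusted p = 0.0108). fng (fringe, 3L), the glycosyltransferase that tunes which ligand the receptor answers, fell, with 62.8, 58.95 and 75.3 CPM at late, against 169, 124, 129.6, 114 and 118 CPM at intermediate (log2 -0.998 ± 0.14, adjusted p = 3.15e-05). Su(H) and mam, the DNA-binding partner and coactivator, fell by less (log2 -0.20 and -0.41, adjusted p = 0.0158 and 0.0344).

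Of the Enhancer of split genes, which the activated receptor switches on, 7 members of the list were tested, and 5 of them rose. Of all genes tested 7.33% rose. E(spl)mgamma-HLH (3R) had 16.4, 18.3 and 18.1 CPM at late, against 2.9, 2.58, 3.43, 6.34 and 4.39 CPM at intermediate (log2 2.16 ± 0.21, adjusted p = 2.02e-07), with no overlap. E(spl)mdelta-HLH had 18.2, 16.8 and 20.2 CPM, against 3.27, 4.52, 5.55, 5.54 and 5.88 CPM (log2 1.89 ± 0.38, adjusted p = 0.00148). The other 3 were E(spl)malpha-BFM, E(spl)m7-HLH and E(spl)m3-HLH, while E(spl)m8-HLH and E(spl)mbeta-HLH did not pass. The calls of kuz (without passage 19), Su(H) (17 or 19), Ser (5, 6, 16, 17 or 19), E(spl)malpha-BFM (6, 16 or 17) and mam (5, 6, 7, 16, 17 or 19) were lost in this way, at adjusted p up to 0.074, 0.0953, 0.068, 0.121 and 0.157. In the fits without passage 16, 17 or 19 the list held 4, 5 and 5 rises and 2, 1 and 1 falls.

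A pair of neighbouring genes of BMP signalling rose together. tld (tolloid) and tok (tolkin), metalloproteases that free BMP ligands from their inhibitor, start next to each other on 3R in the BDGP6.54 annotation, with no gene between. tok had 629.6, 664 and 1034 CPM at late, against 54.3, 75.9, 74.98, 68.3 and 130.3 CPM at intermediate (log2 3.27 ± 0.36, adjusted p = 1.05e-06), and tld had 25.8, 30.9 and 49.1 CPM, against 1.74, 1.78, 1.96, 1.3 and 3.64 CPM (log2 4.09 ± 0.31, adjusted p = 7.69e-09). In both, passage 12 (224 and 4.87 CPM) lay above every intermediate library and below every late one. The counting rule is not given, so reads shared between the 2 genes are uncertain. sog (X), the inhibitor that they cleave, had 40.2, 48.3 and 66.6 CPM at late, against 28.3, 23.1, 15.3, 12.8 and 25.9 CPM at intermediate (log2 1.29 ± 0.33, adjusted p = 0.0112), and lost its call without passage 19 (adjusted p = 0.0819). Of 20 tested members of the list 5 rose (with Actbeta and put) and 2 fell (Smox and daw), with a median of 0.0749. The share called was 35.0%, beside 12.5% of all genes tested. Without passage 16, 17 or 19 there were 5, 4 and 2 rises and 2, 0 and 0 falls.

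Among the other signalling lists, the share of members called was 31.6% for Wnt, 27.3% for FGF and PDGF/VEGF, 18.2% for EGF receptor, Ras and ERK and 10.0% for Hedgehog, beside 12.5% of all genes tested. Of 19 Wnt pathway genes 3 rose and 3 fell. Wnt4 (2L), a ligand, had 38.6, 38.9 and 33.6 CPM at late, against 144, 124, 120.5, 105 and 70.4 CPM at intermediate (log2 -1.61 ± 0.35, adjusted p = 0.00355). Axn (axin, 3R), the scaffold of the complex that destroys β-catenin, rose (log2 0.60 ± 0.089, adjusted p = 5.48e-05), and arm (X), the fly β-catenin, fell (log2 -0.25 ± 0.058, adjusted p = 0.00567). Of 10 Hedgehog genes ci (chromosome 4), the transcription factor at the end of the pathway, was the 1 call, with 698 ± 26.8 CPM at late and 1065 ± 82.8 CPM at intermediate (log2 -0.61 ± 0.15, adjusted p = 0.0065). Of 22 EGF receptor, Ras and ERK genes 3 rose, Ras85D among them (log2 0.71 ± 0.15, adjusted p = 0.00263), and Mkp3, the phosphatase that damps ERK, fell (log2 -0.67 ± 0.13, adjusted p = 0.00127). htl (heartless, 3R), the FGF receptor of mesoderm and glia, had 362, 376 and 459 CPM at late, against 136, 118, 131, 146 and 199 CPM at intermediate (log2 1.45 ± 0.35, adjusted p = 0.00732). In the JAK/STAT (11 genes) and insulin and TOR (17 genes) lists edgeR called none, against 2 with p under 0.05 before adjustment in the first and 4 in the second. DESeq2 called 1 fall in each. edgeR on the 8 R4 libraries alone called 2 falls in the first, and 1 rise and 1 fall in the second. With passage 12 counted as late, or with passage number as a linear term, each list held 1 fall. JAK/STAT held 1 fall with passage 4 counted as intermediate, and insulin and TOR held 1 without passage 9 or 11.

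**Figure D4:**
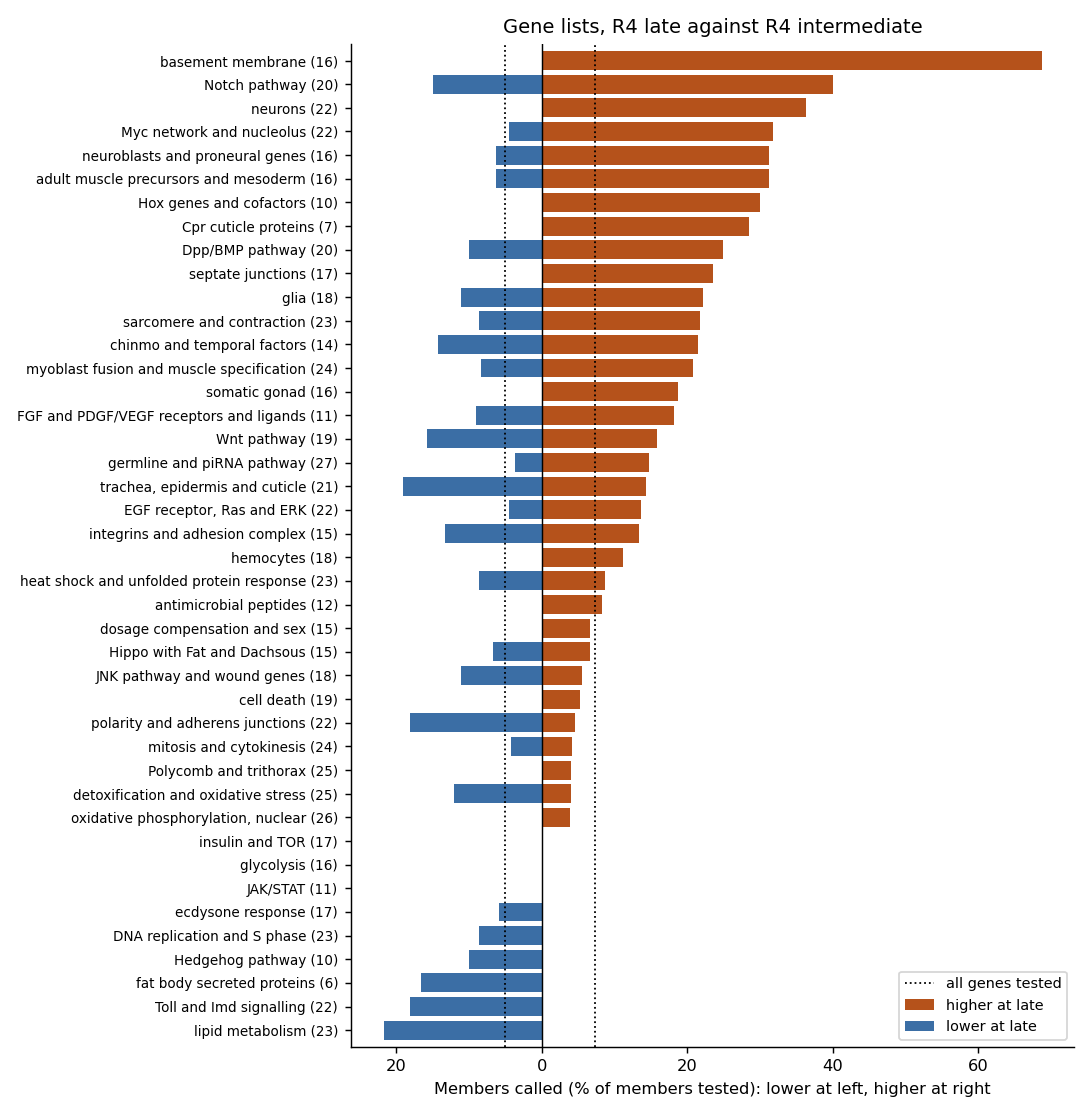
Share of the tested members of each of 42 gene lists called higher (right) or lower (left) in R4 late than in R4 intermediate; the number of members tested is in brackets and dotted lines mark 7.33% and 5.12%, the shares over all genes. Basement membrane has the longest bar, with 11 of 16 members higher, and lipid metabolism the longest to the left, with 5 of 23 lower.

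Hox and trunk selector genes rose where they moved. Scr (Sex combs reduced, 3R), the selector of the labial and first thoracic segments, had 37.8, 45.5 and 39.05 CPM at late, against 6.09, 6.22, 4.25, 5.54 and 14.8 CPM at intermediate (log2 2.48 ± 0.37, adjusted p = 5.48e-05). Antp (Antennapedia, 3R), selector of the thorax, had 23.5, 27.3 and 30.1 CPM, against 5.66, 5.82, 6.62, 8.14 and 5.6 CPM (log2 2.07 ± 0.39, adjusted p = 0.000807). tsh (teashirt, 2L), a trunk selector also used in the eye disc, had 49.1, 50.4 and 54.6 CPM, against 17.5, 15.2, 11.9, 10.5 and 20.2 CPM (log2 1.77 ± 0.32, adjusted p = 0.000561). These were the 3 calls among 10 tested genes of the list (30.0%, beside 12.5% of all genes tested), whose median was 0.384. All 3 held with any of the 8 libraries left out.

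Muscle genes gave no common direction. Of 23 tested sarcomere genes 5 rose and 2 fell (30.4%, beside 12.5% of all genes tested). bt (projectin, chromosome 4), a giant protein of the sarcomere, had 59.8, 78.8 and 151 CPM at late, against 29.8, 18.6, 21.3, 33.99 and 33.4 CPM at intermediate (log2 1.81 ± 0.36, adjusted p = 0.0016), while Act79B (3L), a muscle actin, had 59.7, 56.6 and 50.7 CPM, against 665, 445, 328, 216 and 97.2 CPM (log2 -2.65 ± 0.58, adjusted p = 0.00343). The intermediate values of Act79B declined with passage, and the late ones lay below all of them. twi (twist, 2R), the mesoderm factor kept by adult muscle precursors, had 210.1, 226 and 254 CPM, against 40.9, 57.4, 76.9, 87.2 and 118 CPM (log2 1.6 ± 0.45, adjusted p = 0.0194). Its call was lost without passage 5, 17 or 19 (up to 0.0699). if (inflated, X), an integrin α chain of muscle attachment, rose (log2 0.98 ± 0.17, adjusted p = 0.000331). Summed sarcomere CPM were 2159 to 2649 at late and 1949 to 2312 at intermediate.

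Polarity genes fell more often than they rose. Of 22 polarity and adherens junction genes 4 fell (baz, Fas3, arm and par-6) and CadN2 rose, with a median of -0.147. The share called was 22.7%, beside 12.5% of all genes tested. baz (bazooka, X), the apical scaffold known as PAR-3, had 105, 108 and 86.2 CPM at late, against 368, 230.5, 257, 284 and 165 CPM at intermediate (log2 -1.39 ± 0.21, adjusted p = 5.93e-05). Fas3 (fasciclin 3, 2L), an adhesion protein, had 111, 101 and 86.97 CPM, against 216, 141, 184, 225 and 239.5 CPM (log2 -1.01 ± 0.22, adjusted p = 0.00323). Without passage 16, 17 or 19 the list held 3, 4 and 3 falls. Septate junction genes did not share this direction, with 4 rises (Nrg, Gli, nrv2 and sinu) and no fall among 17 (23.5%), and a median of 0.266. Of 21 trachea, epidermis and cuticle genes 3 rose and 4 fell (33.3%). Among the largest falls was Osi12 (3R), an Osiris family membrane protein, with 0.361, 0.323 and 0.102 CPM at late, against 55.9, 21.2, 8.49, 3.46 and 7.37 CPM at intermediate (log2 -6.1 ± 1.64, adjusted p = 0.016). Lcp3 (2R), a larval cuticle protein, had 0.938, 0.108 and 0.102 CPM, against 14.9, 52.2, 10.4, 6.19 and 1.49 CPM (log2 -5.3 ± 1.25, adjusted p = 0.00604). Both were separate between the stages but spread widely within the intermediate one. Osi12 lost the call without passage 16, 17 or 19 (adjusted p = 0.0644, 0.0649 and 0.0818) and its intermediate mean was 10.1 CPM without passage 5. The intermediate mean of Lcp3 was 8.25 CPM without passage 6 and its late mean 0.105 CPM without passage 16 (log2 -7.2).

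The called immune signalling and fat body genes fell. Of 22 Toll and Imd signalling genes 4 fell (nec, Dif, PGRP-SA and PGRP-LC) and none rose (18.2%, beside 12.5% of all genes tested). The median was -0.138, and 3, 3 and 1 fell without passage 16, 17 or 19. nec (necrotic, 2R), a serpin that restrains Toll activation, had 0.216, 0.108 and 0.306 CPM at late, against 10.01, 9.94, 3.1, 0.72 and 0.373 CPM at intermediate (log2 -4.45 ± 1.08, adjusted p = 0.00729). Dif (2L), an NF-κB factor of the Toll pathway, had 78.4, 68.4 and 68.3 CPM, against 177, 141, 122, 98.3 and 118 CPM (log2 -0.87 ± 0.22, adjusted p = 0.0107), and lost the call without passage 17 or 19 (adjusted p = 0.0533 and 0.0612). The late libraries lay below all intermediate ones in both genes. For nec this gap rests on few reads, with 3, 1 and 3 at late, against 10 at passage 9 and 4 at passage 11. Tsf1 (transferrin 1, X), the iron carrier of hemolymph, had 43.8, 43.2 and 20.7 CPM at late, against 1489, 766, 553, 300.4 and 109 CPM at intermediate (log2 -4.16 ± 1.08, adjusted p = 0.0121). Tsf1 was the 1 call among 6 fat body genes (16.7%) and did not pass without passage 19 (adjusted p = 0.074). Of 12 tested antimicrobial peptide genes CecC alone was called (8.33%). It stood at 2.3 ± 0.999 CPM at late and 0.374 ± 0.161 CPM at intermediate (log2 2.59 ± 0.84, adjusted p = 0.0417). The call was lost in 7 of the 8 fits lacking a library (up to 0.142).

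Of 27 tested germline genes, 4 rose (ovo, mael, krimp and bam) and nxf2 fell (18.5%, beside 12.5% of all genes tested). ovo (X), a zinc finger factor of the germline and epidermis, had 19.3, 20.7 and 24.2 CPM at late, against 2.47, 1.86, 3.19, 3.89 and 6.16 CPM at intermediate (log2 2.61 ± 0.43, adjusted p = 0.000201). The late libraries did not overlap with the intermediate ones. Another gene known from oogenesis, orb (3R), a CPEB translation factor outside the lists that was picked for its values, had 483, 475 and 596 CPM at late, against 22.8, 34.3, 43.04, 39.1 and 95.4 CPM at intermediate (log2 3.47 ± 0.34, adjusted p = 2.28e-07).

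Some nucleolar genes rose by small amounts. Of 22 nucleolar and Myc network genes 7 rose and Ns2 fell (36.4%, beside 12.5% of all genes tested), with a median of 0.221. Fib (fibrillarin, 2R), the methyltransferase of small nucleolar ribonucleoproteins, averaged 96.7 ± 4.5 CPM at late and 71.6 ± 7.05 CPM at intermediate (log2 0.43 ± 0.10, adjusted p = 0.0051). Nop60B (2R), the pseudouridine synthase of the other class of these particles, rose by 0.36 (adjusted p = 0.0164), and hoip (2L), a protein of the same particles, by 0.55 (adjusted p = 0.00782). The late and intermediate libraries did not overlap in these 3 genes. Myc (X) averaged 569 ± 16.9 CPM at late and 569 ± 45.9 CPM at intermediate (log2 -0.00069 ± 0.13, adjusted p = 0.999). Without passage 16, 17 or 19 the list held 1, 5 and 4 rises. hoip and Nop60B lost the call without passage 16 (adjusted p = 0.0694 and 0.0919). Small nucleolar RNAs, the guides of these particles, had 35 of 152 tested entries higher and 3 lower (of all genes tested 7.33% were higher and 5.12% lower). Their median was 0.448. Leaving out passage 16, 17 or 19 left 15, 19 and 34 of them higher. Their share of all counts was 2.37, 1.98 and 1.77% at late and 1.58 to 1.98% at intermediate, so the stages overlapped.

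In the division lists 8.33% of mitosis genes and 8.7% of replication genes were called, beside 12.5% of all genes tested. Of 24 mitosis genes CycA (3L), cyclin A, rose (log2 0.37 ± 0.095, adjusted p = 0.0106) and nod fell, CycA not passing without passage 19 (adjusted p = 0.0878). Of 23 replication genes PCNA (2R), the sliding clamp, and Mcm2 fell. The summed level of this list was 3287 to 3394 CPM at late and 3433 to 4110 CPM at intermediate. PCNA had 121, 109.5 and 109 CPM at late, against 155, 151, 172, 177 and 169 CPM at intermediate (log2 -0.54 ± 0.086, adjusted p = 0.00012). Of 23 lipid metabolism genes 5 fell and none rose (21.7%, median -0.21). FASN2 (2L), a fatty acid synthase, had 6.13, 8.08 and 6.12 CPM, against 20.2, 53.97, 30.1, 42.3 and 15.3 CPM (log2 -2.26 ± 0.51, adjusted p = 0.00419). Without passage 16, 17 or 19 there were 1, 2 and 2 falls of this list. Among 16 glycolysis genes none was called by edgeR or DESeq2, and before adjustment 2 of them were higher and 0 lower at p under 0.05. With passage 12 counted as late 1 rose, and without passage 6 there were 3 rises.

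The largest rises among genes averaging at least 10 CPM at late included genes outside the lists. CG32106 (3L) had 11.4, 13.7 and 28.1 CPM at late, against 0.218, 0, 0.0817, 0 and 0.653 CPM at intermediate (log2 6.54 ± 0.63, adjusted p = 2.02e-07), and CG1136 (3L) had 10.5, 8.84 and 14.3 CPM, against 0.218, 0.242, 0, 0 and 0.28 CPM (log2 6.18 ± 0.80, adjusted p = 1.02e-05). esn (espinas, 2R), a LIM protein related to the planar polarity protein Prickle, had 12.1, 15.5 and 11.6 CPM, against 0.29, 0, 0.0817, 0.144 and 1.4 CPM (log2 5.13 ± 0.64, adjusted p = 5.67e-06). Between passages 5 and 9 none of the 3 exceeded 0.290 CPM. Without passage 11 the intermediate means of CG32106 and esn were 0.0748 and 0.129 CPM (log2 7.67 and 6.51). CG12869 (2R) averaged 36.7 ± 2.85 CPM at late and 2.64 ± 1.47 CPM at intermediate (log2 3.8 ± 0.35, adjusted p = 1.48e-07). Among the more abundant genes, heca (headcase, 3R), a protein of undivided imaginal cells picked here for its values, had 1302, 1326 and 1875 CPM at late, against 435, 429, 368, 326 and 497 CPM at intermediate (log2 1.87 ± 0.19, adjusted p = 4.36e-07).

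The largest falls held several cell surface proteins. beat-IIa (3R), an immunoglobulin family protein of the Beaten path group, had 9.17, 7.22 and 4.28 CPM at late, against 93.8, 113, 124, 90.8 and 55.4 CPM at intermediate (log2 -3.77 ± 0.87, adjusted p = 0.0052), and beat-IIb, which lies nearby with 4 genes starting between, had 1.59, 0.754 and 1.12 CPM, against 13.3, 18.7, 14.4, 10.8 and 9.33 CPM (log2 -3.49 ± 0.68, adjusted p = 0.00114). At passages 2 and 3 beat-IIa had 3.04 and 6.73 CPM and beat-IIb 1.62 and 2.93 CPM, below every intermediate library. GluClalpha (3R), a glutamate-gated chloride channel, had 3.03, 1.94 and 2.04 CPM, against 36.8, 36.2, 23.8, 12.03 and 13.2 CPM (log2 -3.35 ± 0.39, adjusted p = 2.17e-06). btsz (bitesize, 3R), a synaptotagmin-like protein that organises actin at apical junctions, had 2.31, 2.26 and 2.24 CPM, against 43.2, 35.7, 19.9, 10.4 and 7.28 CPM (log2 -3.35 ± 0.57, adjusted p = 0.000281). btsz was lower at each successive passage from 5 to 12, and both genes were lowest at late. Bbd (2R) and EbpIII (2R), both secreted proteins, changed by -5.07 ± 1.39 and -3.59 ± 0.98 (adjusted p = 0.0168 and 0.0163). Bbd lost the call without passage 16, 17 or 19 (up to 0.0827), and its intermediate mean was 6.46 CPM without passage 5. EbpIII lost it without passage 6, 16 or 19 (up to 0.0952), and its late mean was 0.775 CPM without passage 17 and its intermediate mean 9.35 CPM without passage 6.

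The same contrast in the other 2 lines shows which of these changes R4 had in common with them. R1 had 2042 genes called between late and intermediate (22.3%, with 11.4% higher and 10.8% lower) and R5 341 (3.72%, with 2.65% higher and 1.07% lower), in the same fit but with 3 intermediate libraries in R5. Of the 673 rises of R4, 341 (50.7%) were also rises in R1, which is 32.5% of R1's 1048 rises, and 28 (4.16%) were rises in R5, 11.5% of its 243. Of the 470 falls, 194 (41.3%) were falls in R1 and 13 (2.77%) in R5, or 19.5 and 13.3% of the falls of those lines. Genes that moved in opposite directions numbered 21 and 12 against R1 and 12 and 9 against R5. Across all 9177 genes the log2 changes correlated at r = 0.522 between R4 and R1 and 0.153 between R4 and R5. Genes are not independent replicates, so these values are descriptions.

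Of the 6 called genes of the eye field set, 5 were also called rises in R1 and Optix was not. The log2 changes of toy, ey, eya, so and dac were 3.28, 4.12, 4.73, 3.09 and 2.72 in R1 (adjusted p = 4.73e-06, 1.80e-07, 2.01e-07, 5.57e-06 and 0.0017). In R5 the same genes had 0.71, 0.49, -1.69, -0.98 and -1.38, none of them called. Intermediate R5 held eya, so and dac at 37.1, 45.05 and 2.58 CPM, beside 26.3, 23.98 and 29.04 CPM in late R4. Optix changed by 1.88 ± 0.36 in R4, against -0.19 ± 0.33 in R1 and 1.14 ± 0.67 in R5 (adjusted p = 0.738 and 0.361 for the last 2). Its change in R4 exceeded that in R1 (adjusted p = 0.0197), while the difference from R5 did not pass (adjusted p = 0.655). Optix averaged 33.3 CPM at intermediate and 29.25 CPM at late in R1, beside 8.66 CPM in late R4. In R5 it averaged 0.478 and 1.05 CPM. tok and tld rose by 5.03 and 5.01 in R1 and chinmo by 3.41 (adjusted p = 8.01e-10, 1.07e-10 and 4.48e-05), against 0.35, -0.24 and -0.37 in R5, where none was called. chinmo averaged 1298 CPM at intermediate and 1007 CPM at late in R5, beside 369 CPM in late R4 and 723 CPM in late R1. The joint test, which passes where R4 differs from either other line, passed for toy, ey, eya, so, dac, tok, tld and chinmo (adjusted p = 2.95e-06 for eya to 0.0359 for toy). Against R1 alone eya, so, dac, tok, tld and chinmo did not pass (adjusted p = 0.0531 for tok to 0.891 for so). Against R5 alone each of these passed (adjusted p = 2.73e-05 for eya to 0.0325 for chinmo). cas fell in all 3 lines, with log2 changes of -2.51 in R4, -4.59 in R1 and -3.37 in R5 (adjusted p = 0.0048, 4.01e-05 and 0.022), and did not pass the joint test (adjusted p = 0.188).

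The joint test asked for each gene whether the change of R4 differed from that of R1, that of R5 or both. In it 1407 genes passed (15.3%), 517 of them called in R4. A pass alone therefore does not mean that R4 differed from both lines. Among genes averaging at least 10 CPM in the higher stage, 17 rises and 6 falls of R4 exceeded those of both other lines in each single contrast, where 3.38% of all genes passed against R1 and 5.39% against R5. Leaving aside the entries tied to passage 17, CG32106 and SoxN had the widest margin among the rises. SoxN changed by 3.72 ± 0.35 in R4, against -0.74 ± 0.33 in R1 and -1.72 ± 0.61 in R5 (joint adjusted p = 1.37e-06). SoxN averaged 32.7 CPM at intermediate and 19.5 CPM at late in R1, beside 38.85 CPM in late R4. In R5 it averaged 2.09 and 0.622 CPM. CG32106 changed by 6.54 ± 0.63 in R4, against -0.18 ± 0.91 and -0.11 ± 1.02 (joint adjusted p = 0.000169). heca changed by 0.028 ± 0.20 in R1 and -0.45 ± 0.22 in R5, neither of them called, with a joint adjusted p of 1.02e-05. The widest margins among the falls were those of sev (-0.41 ± 0.43 in R1 and -0.067 ± 0.49 in R5, joint adjusted p = 0.00964), Ets21C, an ETS factor of the JNK response (-0.99 ± 0.14 in R4, -0.29 ± 0.14 in R1 and -0.17 ± 0.15 in R5; 0.0114), blot, a transporter of the SLC6 family (-1.46 ± 0.36, 0.49 ± 0.33 and 0.43 ± 0.36; 0.0106), and CG4036 (-0.44 ± 0.10, 0.099 ± 0.099 and 0.16 ± 0.11; 0.00908). With passage 12 counted as late, the R4 calls of blot (log2 -0.92, adjusted p = 0.107) and CG4036 (log2 -0.28, adjusted p = 0.109) were lost. Scr and Pxn had log2 changes below 0 in R1 and R5 and above 2 in R4 (joint adjusted p = 0.000883 and 0.00565). Scr averaged 78.5 CPM in late R5, 0.616 CPM in late R1 and 40.8 CPM in late R4. Pxn averaged 4.21, 1.54 and 91.6 CPM in the same order.

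**Figure D5:**
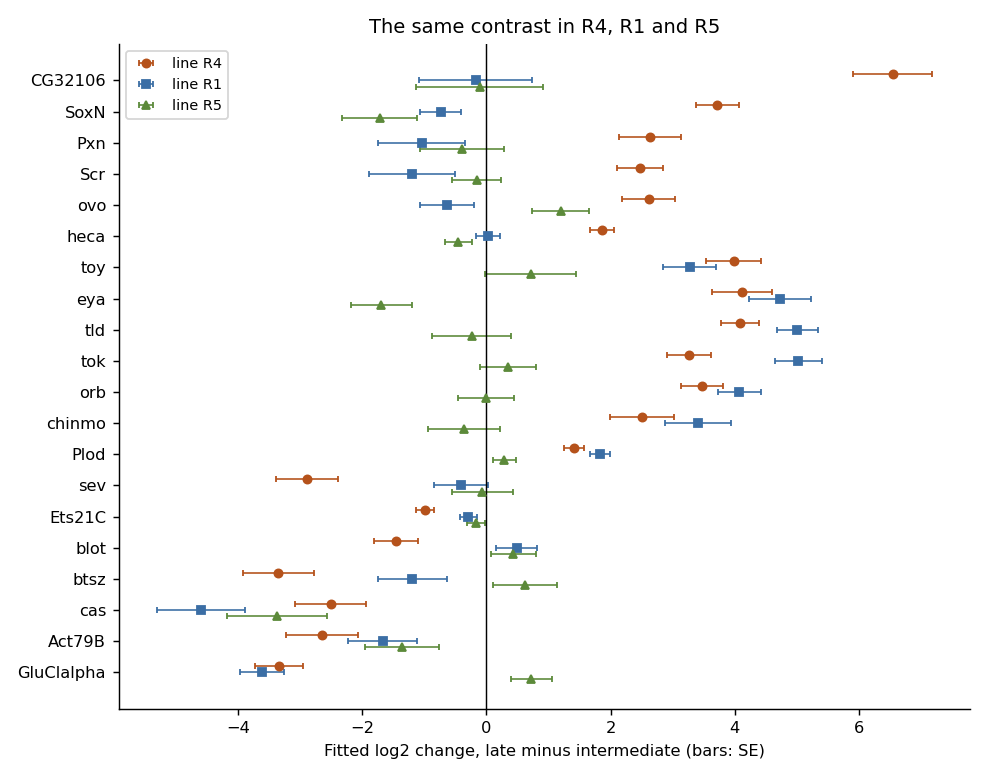
Fitted log2 change, late minus intermediate, of 20 genes in lines R4 (circles), R1 (squares) and R5 (triangles), with bars of 1 SE. CG32106, SoxN, Pxn and Scr lie right of 0 in R4 alone. eya, tld, orb and chinmo lie right of 0 in R4 and R1, and toy and tok in R4, R1 and R5. R4 lies above R5 in all of these genes.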

How the data were processed

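Total RNA of lines R1, R4 and R5 was sequenced at successive passages after depletion with a Ribo-Zero kit for human, mouse and rat and library preparation with ScriptSeq v2, per the labels' protocols. The authors deposited read counts per gene, whole numbers that are not normalized. The submitters' processing notes name TopHat 1.4.1, Bowtie 0.12.8, bedtools and the builds BDGP5 and dm3, with no role given. The sources used here do not state the counting rule, the use of strand or the annotation. Overlapping, antisense and multicopy genes are therefore uncertain. The labels name no molecular identifiers, and precision is limited by counting error and by the 3 and 5 libraries of a stage.

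Of 15253 entries 2 name no gene (0.0123 to 0.0187% of counts) and were left out. Identifiers were matched to the BDGP6.54 annotation (9370 by gene ID, 5002 by locus tag, 476 by synonym, 231 by symbol), and 172 names were kept as in the files. No sequence is printed, and no coordinates are given because the builds differ.

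Genes with at least 1 CPM in at least 3 of 31 libraries entered an edgeR 4.0.16 quasi-likelihood test (R 4.3.3, TMM scaling, 9 groups of line and stage, 22 residual degrees of freedom). The log2 CPM values behind the principal components, the position scale and limma-trend used a prior count of 2. The 2 other lines share the spread estimate. Passage 12 of R4 was left out of the fit. P-values were adjusted over 9177 genes by Benjamini-Hochberg, with a threshold of 0.05. The joint test asks whether the R4 change differs from that of R1, that of R5 or both. The steps were run on simulated counts drawn independently for each library. Such counts cannot show what dependence between successive passages of 1 culture does to the p-values. DESeq2 1.42.0, limma 3.58.1, other scalings, filters, placements of passages 4 and 12, a passage trend and leaving out each library served as alternatives.

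The comparison, the 42 gene lists (816 genes, with 27 symbols unmatched) and the rule for genes were chosen with earlier results of these data known. The rule took the 10 largest rises and 10 largest falls with at least 10 CPM and no overlap, the 2 leading called genes of each list with 3 or more called members and the first of each with fewer, and the 4 rises and 4 falls with the widest margin over both other lines. Genes with near-identical copies are uncertain. All other genes with values, such as dac, Optix, orb, heca, cas, vvl and further members of the basement membrane, Notch and neuronal lists, were added after their values were seen.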

Additional observations from a re-analysis of the deposited data

Results flagged for a closer look

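In some genes 1 intermediate library lay far from the other 4 by Dixon's criterion, which chance alone meets in about 5% of groups. Passage 11 was the high one for most of them, at 3.64 CPM for tld, 130.3 CPM for tok, 3.64 CPM for scrt, 14.8 CPM for Scr, 1.4 CPM for esn, 14.7 CPM for toy, 11.7 CPM for dac, 1536 CPM for LanB1, 538 CPM for SPARC, 648 CPM for Myc and 95.4 CPM for orb. Passage 5 was high for fng (169 CPM) and Tes (146 CPM), passage 6 was high for Npc1a (185 CPM) and Lcp3 (52.2 CPM), and passage 6 was low for eya (1.13 CPM). Each of these late values lies beyond the intermediate range, except for Myc, where the stages overlap.

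The joint test set the R4 change against the changes of R1 and R5, and passed for 76 of the genes named or examined here. The adjusted p is over all genes tested (edgeR quasi-likelihood test with Benjamini-Hochberg adjustment, 22 residual degrees of freedom). A gene passes where R4 differs from either line or both, so a pass does not mark a change of R4 alone. In the single contrasts SoxN differed from R1 and from R5 (adjusted p = 4.64e-06 and 3.32e-05), while eya differed from R5 only (0.705 and 2.73e-05). Kr passed the joint test with the larger rise in R1 (log2 4.54, against 2.5 in R4). Among the rises of R4 that were also called rises in R1, with R4 log2 changes from 0.60 to 5.13, the joint adjusted p-values were as follows: E(spl)mgamma-HLH 1.90e-08, htl 0.00111, tld 0.000174, tok 2.33e-05, Axn 0.000607, Nrg 0.0041, scrt 0.00769, Kr 0.000833, if 0.000287, eya 2.95e-06, so 5.80e-05, tsh 0.00352, Plod 0.000353, fru 0.000616, mamo 0.00094, esn 0.00193, toy 0.0359, ey 0.00426, CG12869 8.85e-05, dac 0.00469, LanB2 0.0194, Col4a1 0.0404, vkg 0.0421, trol 0.00339, SPARC 0.0138, Delta 0.0444, E(spl)mdelta-HLH 6.96e-05, chinmo 0.00614, mira 0.0155, twi 0.000522, Appl 0.0124, onecut 0.00127, cac 1.12e-05, orb 6.63e-05.

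Among the rises of R4 that were not called rises in R1, with R4 log2 changes from 0.33 to 6.54, they were as follows: Fib 0.0092, hoip 0.0419, Pxn 0.00565, SoxN 1.37e-06, Tm2 0.0488, Scr 0.000883, jing 0.0238, Gasp 0.000267, ovo 0.0033, Hsc70-4 0.0124, Keap1 0.0107, CG32106 0.000169, CR43361 0.0048, CR41608 0.00677, CR41583 0.00622, Optix 0.0172, Antp 0.00281, Nop60B 0.00682, heca 1.02e-05. The entries CR43361, CR41608 and CR41583 rest on the library of passage 17.

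Among the falls of R4, with log2 changes (lbe and Hsp70Bc aside) from -3.49 to -0.20, they were as follows: PCNA 0.0232, fng 0.0322, Mkp3 0.0197, Pvf1 0.0105, Wnt4 0.000175, usp 0.0133, Ets21C 0.0114, Tes 0.00511, baz 0.00883, Fas3 0.000505, Hsp70Bc 0.0193, GstT4 0.0127, FASN2 0.00276, Npc1a 5.04e-05, beat-IIb 0.0255, btsz 0.00325, GluClalpha 2.56e-06, sev 0.00964, blot 0.0106, CG4036 0.00908, Su(H) 0.00457, lbe 0.00294. lbe and Hsp70Bc have 1 late read each, so their fitted changes give no size. Mp, which was not called in R4 (log2 -0.24), passed the joint test as well, at 0.000773.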

How the results depend on the processing

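The count of genes called in R4 was 1143, with 673 higher and 470 lower. Leaving out 1 library at a time gave 587 to 1222 in all, 427 to 693 higher and 160 to 529 lower, with the lowest counts without passage 19. These fits have fewer samples. Replacing the stages by passage number as a linear term gave 1621 in all and 743 lower. Scaling by relative log expression or total counts, other filters, DESeq2, limma-trend, a fit of the 8 R4 libraries alone, and counting passage 12 or passage 4 in a stage gave totals between 864 and 1449. None of the 116 called genes followed one by one reversed its direction, while Hml, Myc and elav, which were not called, changed sign when some libraries were left out. Over all 1143 calls, the fitted change reversed sign in 1 gene with passage 4 counted as intermediate and in 1 without passage 17. Between 49.6 and 99.5% of the calls were kept per alternative, and the cause of the losses was not tested. Of the 116 genes, 80 kept the call whichever library was left out, 72 kept it in every alternative run, and 27 lost it without passage 19. With passage 12 counted as late the calls of CycA, CecC, Osi12, beat-IIb, blot, CG4036, Ndg, SPARC, Ser, vvl and zfh2 were among those lost, and with passage 4 counted as intermediate those of Dif, Hsc70-4, Ndg, Su(H), mam, Appl and onecut. No paired analysis was possible because the stages share no passage, and replicate numbers follow accession order. Low genes are limited by depth, and a culture sampled once per passage gives no spread between cultures.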

Other observations

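Among the lists not yet described, the share of members called ran from 3.85% (oxidative phosphorylation) to 37.5% (adult muscle precursors), beside 12.5% of all genes tested. Of 15 integrin and adhesion genes 2 rose and 2 fell, of 15 Hippo, Fat and Dachsous genes 1 rose and 1 fell, and of 18 JNK and wound genes 1 rose and 2 fell. ft (fat, 2L), the giant cadherin that restrains growth, had 32.8, 44.3 and 37.3 CPM at late, against 13.7, 18.2, 14.9, 14.8 and 20.9 CPM at intermediate (log2 1.21 ± 0.34, adjusted p = 0.021), and lost the call without passage 17 or 19 (up to 0.0953). Mmp2 (2R), a matrix metalloprotease, rose by 0.54 on the log2 scale (adjusted p = 0.0103) and lost the call without passage 19 (adjusted p = 0.0602). fru (fruitless, 3R), a BTB zinc finger factor, had 245, 258 and 268 CPM at late, against 133, 105, 108, 104 and 152 CPM at intermediate (log2 1.09 ± 0.19, adjusted p = 0.000379), the 1 call of 15 dosage compensation and sex genes. Of 11 FGF and PDGF/VEGF genes 2 rose and 1 fell, and of 17 ecdysone genes usp (X), a subunit of the ecdysone receptor, fell (log2 -0.30 ± 0.065, adjusted p = 0.00347). Of 24 muscle fusion and specification genes 5 rose and 2 fell. Of 16 adult muscle precursor genes 5 rose (eya, so, Delta, htl and twi) and 1 fell (Poxm). Of 16 somatic gonad genes 3 rose (eya, so and chinmo) and 0 fell (18.8% called).

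Of the stress lists, heat shock and unfolded protein genes had 17.4% called and detoxification genes 16.0%, while Polycomb and trithorax genes had 4.0%. Hsc70-4 (3R), the constitutive chaperone, averaged 6214 ± 102 CPM at late and 4958 ± 239 CPM at intermediate (log2 0.33 ± 0.078, adjusted p = 0.00705), 1 of 2 rises beside 2 falls among 23 heat shock and unfolded protein genes. With passage 4 counted as intermediate its call was lost (log2 0.26, adjusted p = 0.114). GstT4 (X), a glutathione transferase, had 64.5, 81.7 and 60.97 CPM at late, against 158, 118, 131, 104 and 108 CPM at intermediate (log2 -0.85 ± 0.16, adjusted p = 0.000693), 1 of 3 falls beside 1 rise among 25 detoxification genes. Of 25 Polycomb and trithorax genes, 26 nuclear genes of oxidative phosphorylation and 19 cell death genes 1 rose in each and none fell. Of 7 tested Cpr cuticle genes 2 rose.

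The shares of calls by chromosome arm stand beside 7.33% of all genes tested that rose and 5.12% that fell. On X 4.81% of 1579 genes rose and 8.49% fell (median log2 -0.085), while on 3R 8.67% rose and 3.92% fell. On chromosome 4, which holds toy, ey, ci, zfh2, bt and onecut, 10 of 81 genes rose (12.3%) and 2 fell (2.47%). Differences between arms were not tested. Passage 11 was the highest intermediate library in 268 of the 673 rises (39.8%), against 25.5% of all genes, and the lowest in 225 of the 470 falls (47.9%), against 25.0% of all genes.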
